A study of Rattus with 52 samples.

Results

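Integrins are the receptors by which cells hold on to the matrix and, in blood cells, to one another. Laminins are the large proteins that build the sheet beneath epithelia and around muscle fibres and vessels. The genes described here are those in the table whose name is that of an integrin alpha or beta chain or of a laminin alpha, beta or gamma chain. They are 34 genes among 20624, 24 integrin chains (16 alpha and 8 beta) and 10 laminin chains, and they were taken by name and not by their values.

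RNA from the kidney and from the left ventricle (LV) of male Sprague Dawley rats was sequenced in 52 libraries. The rats had 5/6Nx, in which the right kidney and both poles of the left were cut away, or Sham surgery, at 10 weeks of age, and 6 weeks later every rat had its omentum removed and an abdominal catheter placed. In each tissue there were 7 libraries of 5/6Nx rats given peritoneal dialysis (PD), 7 of 5/6Nx rats with the catheter alone (Control), 6 of Sham PD rats and 6 of Sham Control rats. PD was 3 exchanges a day for 8 days. The Control rats therefore carried the catheter too, and the kidney of a 5/6Nx rat is the remnant of its left kidney. The labels name no rat, so LV and kidney libraries were not matched, and p-values measure the spread between these libraries. Library numbers in the sample titles do run in parallel in the tissues of each group. They might pair the libraries of a rat, but the sources do not say so.

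An integrin is a pair of an alpha and a beta chain, and the pair decides what it binds. Itgb1 joins many alpha chains, among them Itga3, Itga6 and Itga7, which bind laminins, and Itga1, Itga2, Itga10 and Itga11, which bind collagens. Itga5 binds fibronectin, and Itgav pairs with Itgb3, Itgb5, Itgb6 or Itgb8 to bind vitronectin, fibronectin or the latent form of TGF-beta. Itgb2 and its partners Itgal and Itgax, and Itgb7 with its partner Itgae, belong to leukocytes, and Itga2b with Itgb3 forms the fibrinogen receptor of platelets. A laminin is a trimer of an alpha, a beta and a gamma chain: Lama3 and Lamb3 are chains of an epithelial laminin held by Itga6 with Itgb4, Lama2 is the alpha chain of muscle, Lama4 that of vessels, and Lama5 with Lamb2 and Lamc1 forms the main laminin of the mature glomerular filter.

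Levels are given as normalized reads, the reads of a gene after the libraries were brought to one depth, as lowest to highest with the median. They were not divided by gene length and serve to compare libraries, not genes. Changes are log2 differences ± standard error from limma on the deposited log2 values, positive where the group named first was higher, with p-values adjusted over all genes of the comparison and called under 0.05. On that scale low values are drawn together: 10, 100 and 1000 normalized reads lie at 6.50, 7.67 and 10.13, so changes of low genes are understated and the levels, or the fold of their means, are given beside them. Libraries held 16.68 to 111.85 M reads (median 44.2 M).

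Cardiomyocyte and proximal tubule markers followed the labels. The summed level of 6 cardiomyocyte genes was 68.5 to 165 (median 104) in Sham Control kidneys and 2510998 to 3718324 (median 2778863) in Sham Control LV. The 5 proximal tubule genes had 229006 to 277864 (median 245460.4) in those kidneys and 75.7 to 118 (median 103) in those LV. The 5 podocyte genes went the other way, with 8612 to 16237 (median 11877) in those kidneys and 25273 to 32162 (median 29435) in those LV. Their sum therefore does not mark the kidney. A few libraries lay apart from their group on the first principal component of their tissue: LV Sham PD replicate 2 at 2.4, against -37.4 to -18.9 for the other Sham PD LV, and Kidney 5/6Nx Control replicate 6 at -5.2, against 11.7 to 50.2 for the rest of its group. LV 5/6Nx Control replicates 3 and 5 lay at -16.2 and -11.2, against 3.5 to 35.3 for the rest. LV 5/6Nx PD replicate 7 lay at -6.7, below every other library of its group. The comparison of 5/6Nx with Sham in the LV of PD rats was not refitted without it. Kidney Sham PD replicate 4 had the fewest reads. Counts below are given without these libraries for some fits only. No 5/6Nx LV library was left out of the LV fits over both treatments or both surgeries, or of the interactions.

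The chains were first compared between the tissues, Kidney against LV of Sham Control rats (n = 6 each). Of the 34 chains, 28 differed, 10 of them higher in the kidney and 18 lower. The background was 78.6% of all tested genes called, 41.2% higher and 37.4% lower. In 22 chains the 6 kidney libraries did not overlap the 6 LV libraries, against 62.1% of tested genes. The median change was -0.50 over the chains and 0.05 over all genes.

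Itgav with its partners Itgb6 and Itgb8, and Lama1, Itga3 and Lama3, were higher in the kidney. Itgb6, the partner of Itgav on epithelial cells, had 2216 to 3451 (median 2894) normalized reads in kidneys and 6.80 to 41.1 (median 21.3) in LV, and the change was 4.77 ± 0.12 (adjusted p = 3.78e-15). Itgb8, another Itgav partner, had 3341 to 6276 (median 4939) in kidneys and 61.2 to 454 (median 138) in LV (4.21 ± 0.26, adjusted p = 4.49e-10). Itgav itself was 4.1-fold higher in the kidney. The tissues did not overlap for any of the 3. Lama1, an alpha chain of tubular basement membranes, had 149 to 321 (median 194) in kidneys and 0 reads in every LV library of every group. Against a floor of 3 reads in each LV library it was at least 62.7-fold higher in the kidney. Itga3, a laminin receptor of podocytes and tubules, was 2.99-fold and Lama3 3.63-fold higher in the kidney.

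Lama2, Lama4 and Itga7, chains of muscle and vessels, were lower in the kidney and higher in the LV. Lama2 had 227 to 679.7 (median 353) normalized reads in kidneys and 9980.5 to 13114 (median 12192) in LV (-4.64 ± 0.16, adjusted p = 3.94e-13). Lama4 had 194 to 474 (median 331) in kidneys and 9679.7 to 12489 (median 9981) in LV (-4.56 ± 0.14, adjusted p = 6.91e-14). Itga7, the laminin receptor of muscle, had 1537 to 2136 (median 1858) in kidneys and 14385 to 20790.5 (median 15825) in LV (-3.09 ± 0.10, adjusted p = 1.48e-13). None of these ranges overlapped. Itga5 had 326 to 474 (median 375) in kidneys and 4947 to 6289 (median 5451) in LV (-3.50 ± 0.09, adjusted p = 6.06e-15), and Lamb2 and Lamc1 were 5.06-fold and 5.22-fold higher in the LV. Of the other chains called, Itgb5, Itga2b, Lamb3 and Lamc3 were higher in the kidney, and Itga6, Itga8, Itga10, Itga11, Itgal, Itgax, Itgae, Itgb1, Itgb3, Itgb4, Itgb7 and Lamb1 were lower. The 6 chains not called were Itga9, Itga1, Itgb2, Itga2, Itga4 and Lama5. For Lama5, with 5224 to 6227 (median 5482) in kidneys and 4664 to 6949 (median 5770.1) in LV, the difference was -0.04 ± 0.09.

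**Figure D1:**
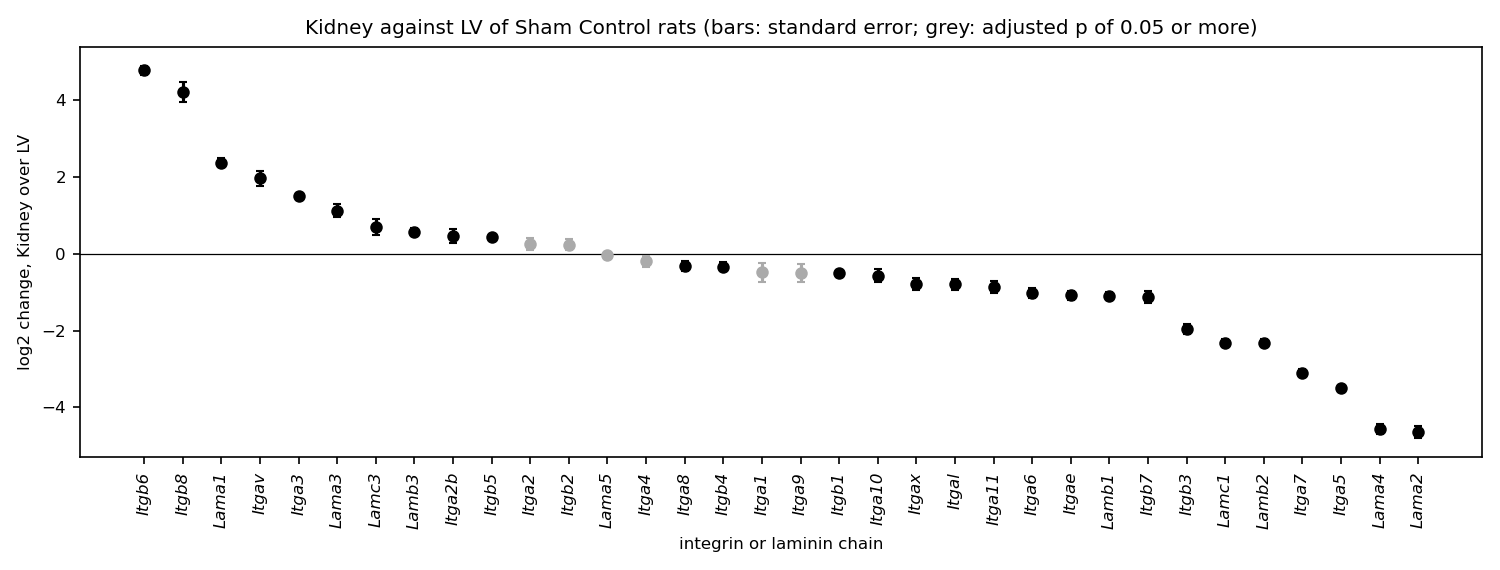
Log2 change of each of the 34 chains between Kidney and LV of Sham Control rats (n = 6 each), in order of size; points are limma estimates, bars are standard errors and grey points were not called. Itgb6 and Itgb8 stand highest, at 4.77 and 4.21, and Lama4 and Lama2 lowest, at -4.56 and -4.64; Lama1 has no reads in the LV, so its point is set by the transformation.

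The remnant kidney was compared with the Sham kidney, first in Control rats (n = 7 against 6). Of 33 chains tested, 20 changed with 5/6Nx, 15 higher and 5 lower, where 52.2% of all tested genes changed, 24.5% higher and 27.7% lower. The groups did not overlap for 9 chains, against 24.4% of genes. The median change was 0.42 over the chains and -0.01 over all genes. In PD rats (n = 7 against 6) 20 of 34 chains changed, 14 higher and 6 lower, where the shares of genes were 40.1%, 20.2% and 19.9%. In PD rats 7 chains did not overlap, against 15.9% of genes. These comparisons share no library. The same 17 chains were called in both, each in the same direction, 12 higher and 5 lower. The share of all genes called in both is not given here, so this overlap cannot be set against it. Over both treatments together, 22 of 34 chains (64.7%) were called, 17 higher and 5 lower. That share was near the 63.3% of 17101 genes called in the same fit, 5335 higher and 5487 lower. Without Kidney 5/6Nx Control replicate 6 the count in Control rats was 21, and without Kidney Sham PD replicate 4 the count in PD rats was 16. The shares of all genes in these refits are not given here, so the counts do not tell whether only the chains moved.

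Among the laminins, Lamb3, an epithelial beta chain, was higher in the remnant. Lamb3 had 931 to 2526 (median 1093) normalized reads in 5/6Nx Control kidneys, against 289 to 500.1 (median 463) in Sham Control kidneys, a 3.36-fold difference of the means (1.46 ± 0.21, adjusted p = 0.00011). All 7 Control remnants were above all 6 Sham kidneys. In PD rats Lamb3 had 441 to 1735 (median 1089) in remnants and 324 to 762 (median 609.9) in Sham kidneys (0.69 ± 0.26, adjusted p = 0.0436). In PD rats 5 of 7 remnants were above every Sham kidney, and the call was lost with no filter, with limma-voom and without Sham PD replicate 1, 2, 3, 4 or 6 or 5/6Nx PD replicate 2, 5, 6 or 7, with an adjusted p of at most 0.0957. Lama3, an alpha chain of epithelia, was not called, at 0.23 ± 0.19 in PD and 0.42 ± 0.21 in Control rats.

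Lama1 had 285 to 1174 (median 618) normalized reads in 5/6Nx Control kidneys, against 149 to 321 (median 194) in Sham Control kidneys (1.18 ± 0.24, adjusted p = 0.00103). In PD rats it had 286 to 747 (median 443) in remnants and 86.5 to 366 (median 215) in Sham kidneys (0.83 ± 0.24, adjusted p = 0.0123). The highest level was that of Control remnant replicate 1, and 4 of 7 PD and 6 of 7 Control remnants were above every Sham kidney of their treatment. Lamb1, the beta chain of many basement membranes, had 8834 to 12655 (median 10778) in Control remnants and 6899.8 to 8509 (median 7789) in Sham Control kidneys with no overlap (0.49 ± 0.08, adjusted p = 0.000366), and in PD rats the change was 0.27 ± 0.10 (adjusted p = 0.0514). Lamb1 was called in PD rats with TMM scaling, limma-voom, all 4 groups in one fit, and without Sham PD replicate 1 or 2 or 5/6Nx PD replicate 3 or 4, with adjusted p between 0.0222 and 0.0488. Lama4 changed by 0.65 ± 0.20 in PD rats (adjusted p = 0.0161) and by 0.52 ± 0.29 in Control rats, where it was called only without 5/6Nx Control replicate 1 (0.70 ± 0.25, adjusted p = 0.033). The chains of the glomerular laminin were not called in either treatment, with changes in PD rats of -0.18 for Lama5, -0.12 for Lamb2 and 0.07 for Lamc1, and in Control rats of 0.10 for Lama5, 0.07 for Lamb2 and 0.17 for Lamc1. Lamc1 was called in Control rats without 5/6Nx Control replicate 1 (0.23 ± 0.09, adjusted p = 0.0364). Lama2 was at -0.02 in PD and 0.14 in Control rats and was not called.

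Of the laminin receptor chains, Itgb4 rose and Itga7 fell. Itgb4 had 3175 to 5698 (median 3283) normalized reads in 5/6Nx Control kidneys, against 957 to 1391 (median 1278) in Sham Control kidneys, 2.98-fold (1.47 ± 0.13, adjusted p = 6.87e-06). Apart from replicate 1 at 5698, the Control remnants lay close together, and none overlapped the Sham kidneys. In PD rats Itgb4 was 2.08-fold higher in remnants (0.98 ± 0.20, adjusted p = 0.00159). Itga7, the muscle receptor, had 797 to 1207 (median 959) in PD remnants and 1574 to 2287 (median 2021) in Sham PD kidneys (-0.91 ± 0.11, adjusted p = 3e-05). All 7 PD remnants were below all Sham PD kidneys, and in Control rats 6 of 7 were (-0.58 ± 0.11, adjusted p = 0.000674). Itga3 rose in Control rats (0.60 ± 0.13, adjusted p = 0.00136) and was at 0.23 ± 0.12 in PD rats, called there only without 5/6Nx PD replicate 3 (0.30 ± 0.11, adjusted p = 0.0401). Itga6, the alpha partner of Itgb4, was not called (0.01 ± 0.15 in PD rats and -0.12 ± 0.14 in Control rats).

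The Itgav partners went both ways. Itgb6 had 3976 to 7159 (median 5393) normalized reads in 5/6Nx Control kidneys, against 2216 to 3451 (median 2894) in Sham Control kidneys (0.80 ± 0.14, adjusted p = 0.000364). In PD rats it had 4485 to 5551 (median 5462) in remnants and 2018 to 3712 (median 3257) in Sham kidneys (0.76 ± 0.12, adjusted p = 0.000277). Neither pair of groups overlapped. Itgb8, which with Itgav also activates TGF-beta, had 418 to 2269 (median 1087) in 5/6Nx Control kidneys, against 3341 to 6276 (median 4939) in Sham Control kidneys, 4.16-fold more in Sham (-2.08 ± 0.30, adjusted p = 0.000116). In PD rats it had 478 to 1983 (median 843) in remnants and 1286 to 3788 (median 2745) in Sham kidneys (-1.30 ± 0.29, adjusted p = 0.00269). The Control groups did not overlap, and 5 of 7 PD remnants were below every Sham PD kidney. Itgav fell as well, by 0.71 in PD rats (adjusted p = 0.00551) and by 0.74 in Control rats (adjusted p = 0.00416). Itgb5 was not called (-0.07 in PD rats and -0.02 in Control rats).

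Itga5 had 460.0 to 1187 (median 989.7) normalized reads in 5/6Nx Control kidneys, against 326 to 474 (median 375) in Sham Control kidneys (0.96 ± 0.16, adjusted p = 0.000336). In PD rats it had 688 to 1527 (median 959) in remnants and 326 to 590.1 (median 457) in Sham kidneys with no overlap (0.91 ± 0.16, adjusted p = 0.000643). In Control rats the remnant inside the Sham range was replicate 6, the library that lay nearest the Sham kidneys. Itga11, the collagen receptor of fibroblasts, had 80.6 to 234 (median 158) in PD remnants and 11.9 to 41.5 (median 20.8) in Sham PD kidneys, 6.76-fold (1.27 ± 0.15, adjusted p = 3.66e-05). In Control rats it had 15 to 262 (median 128) in remnants and 0 to 33.5 (median 14.8) in Sham kidneys (1.14 ± 0.28, adjusted p = 0.00407), where replicate 6 again lay inside the Sham range. Itga9, which binds tenascin and osteopontin, had 262 to 563 (median 330.2) in PD remnants and 536 to 893 (median 712) in Sham PD kidneys (-0.81 ± 0.15, adjusted p = 0.000607), and in Control rats it fell by 0.67 (adjusted p = 0.00356). In both treatments 6 of 7 remnants were below every Sham kidney for Itga9. Itga2 was not called, nor was Itga1 (-0.58 ± 0.23, adjusted p = 0.0509, in Control rats), although it was with limma-voom and without Sham Control replicate 3 or 5/6Nx Control replicate 4, 6 or 7, with adjusted p between 0.0211 and 0.0465. Itga8 was called in PD rats only without 5/6Nx PD replicate 6 (0.83 ± 0.22, adjusted p = 0.00903, against 0.64 ± 0.27 with it), and Itga4 in Control rats only without 5/6Nx Control replicate 1 (0.66 ± 0.23, adjusted p = 0.0278, against 0.49 ± 0.27 with it).

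**Figure D2:**
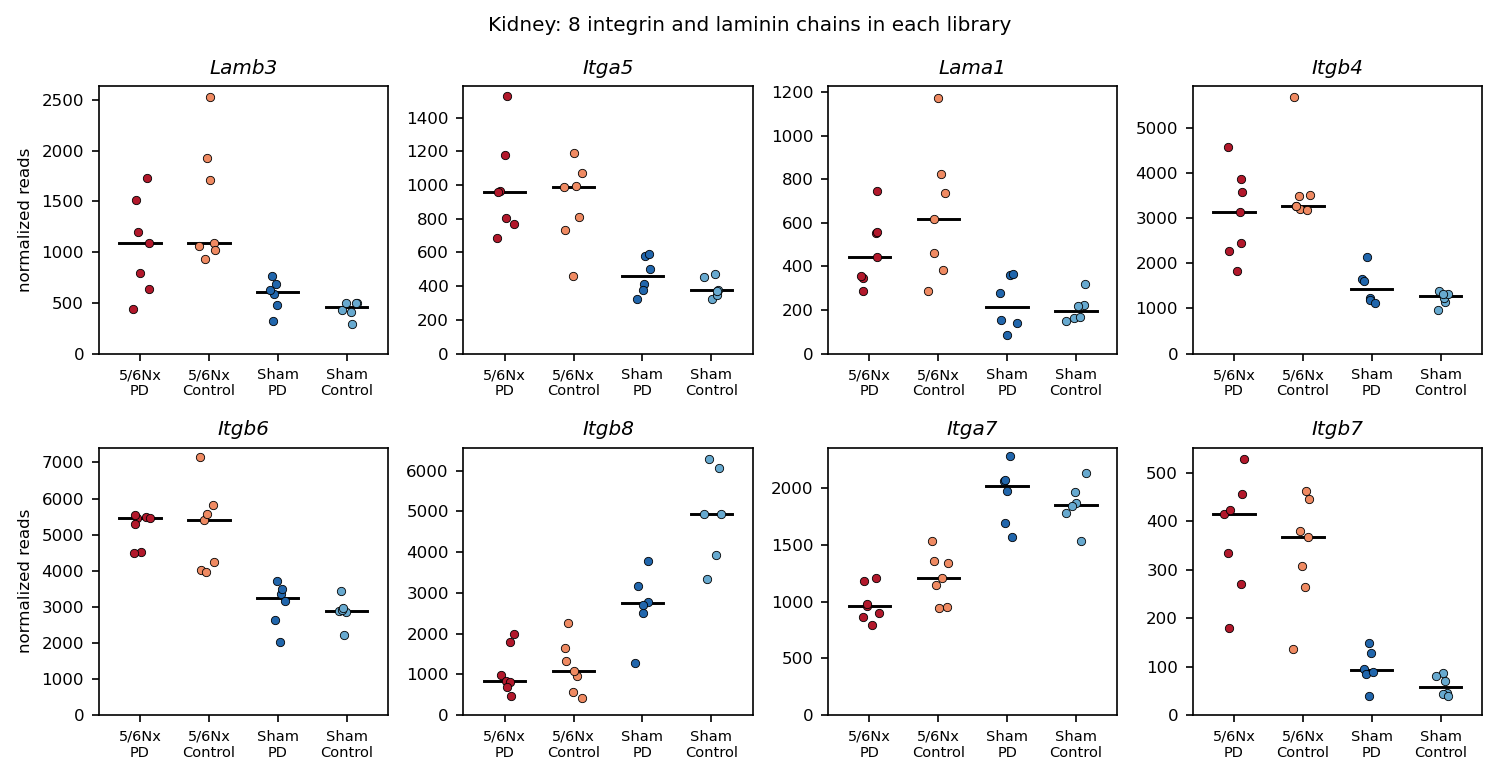
Normalized reads of 8 chains in each kidney library (points) of the 4 groups, with the group median as a line. Lamb3, Itga5, Lama1, Itgb4, Itgb6 and Itgb7 are higher and Itgb8 and Itga7 lower in 5/6Nx kidneys; Itgb8 has 418 to 2269 (median 1087) in Control remnants and 3341 to 6276 (median 4939) in Sham Control kidneys.

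The 5 chains grouped as leukocyte chains, Itgb2, Itgb7, Itgal, Itgax and Itgae, were all higher in the remnant in both treatments. That set left out Itga4, which was called in neither treatment with all libraries in (0.49 ± 0.27 in Control rats). Itgb7 had 136 to 462 (median 367) normalized reads in 5/6Nx Control kidneys, against 39 to 87.7 (median 57.8) in Sham Control kidneys, 5.53-fold (1.47 ± 0.18, adjusted p = 4.31e-05). In PD rats it had 179 to 527 (median 415) in remnants and 40.01 to 149 (median 92.2) in Sham kidneys (1.27 ± 0.19, adjusted p = 0.000149). Neither pair overlapped. Itgae, the receptor for E-cadherin on lymphocytes in epithelia, had 341 to 497 (median 373) in Control remnants and 193 to 270.0 (median 234) in Sham Control kidneys, also without overlap (0.60 ± 0.09, adjusted p = 0.000189). Itgb2, shared by all myeloid and lymphoid cells, had 1439.9 to 2323 (median 1587) in PD remnants and 452 to 994 (median 779) in Sham PD kidneys (1.07 ± 0.15, adjusted p = 8.32e-05). In Control rats Itgb2 was spread more widely, with 596 to 2869 (median 1299) in remnants, replicate 7 highest and replicate 1 below every Sham kidney, and 598 to 935 (median 731) in Sham kidneys. Its call there (0.68 ± 0.24, adjusted p = 0.0292) was lost without Sham Control replicate 1, 2 or 4, with an adjusted p of at most 0.0632. Itgax rose by 0.65 ± 0.18 in PD rats and 0.90 ± 0.17 in Control rats. Itgal rose by 0.77 ± 0.25 in PD rats and 0.98 ± 0.31 in Control rats, and its call in PD rats was lost without Sham PD replicate 3 or 4 (adjusted p of at most 0.0542).

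Marker genes of leukocytes moved with these chains. All 5 pan-leukocyte genes and all 8 macrophage genes rose in the remnant in both treatments, and the summed pan-leukocyte level was 4331 to 12071 (median 10226) in Control remnants and 1484 to 3574 (median 2659) in Sham Control kidneys. No pan-leukocyte or macrophage gene was at 0. All 7 injured-tubule genes rose too, with a sum of 83751 to 236207 (median 110802) in Control remnants and 36921 to 52577 (median 39981) in Sham Control kidneys, and 4 of 5 proximal tubule genes fell, with a sum of 35666 to 192587 (median 73355) in Control remnants and 229006 to 277864 (median 245460.4) in Sham Control kidneys. Fibroblast genes had a sum of 5904 to 39165 (median 27332) in Control remnants and 5988 to 9885 (median 7397) in Sham Control kidneys, with 2 of 5 called. Of the podocyte genes, whose sum was higher in the LV than in the kidney, 2 of 5 fell in PD and 4 of 5 in Control rats. The shares of all genes called were 52.2% in Control kidneys, with 27.7% lower, and 40.1% in PD kidneys, with 19.9% lower. The 2 of 5 fibroblast genes called were not above these shares. The part of cell numbers in the changes of the chains was not tested, and in whole tissue fewer cells of a type and less RNA per cell cannot be told apart.

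Itga2b, the platelet alpha chain, fell in the remnant. It had 348 to 773 (median 424) normalized reads in 5/6Nx Control kidneys, against 844 to 1186 (median 1049) in Sham Control kidneys (-0.94 ± 0.17, adjusted p = 0.000462). In PD rats it had 355 to 637 (median 518) in remnants and 673 to 1081 (median 836) in Sham kidneys (-0.70 ± 0.13, adjusted p = 0.000954). Neither pair of groups overlapped. The 6 platelet markers together had 179 to 317 (median 244) in Control remnants and 84.4 to 143 (median 122) in Sham Control kidneys, where Ppbp was at 0 in the Sham group, so the platelet sum was higher where Itga2b was lower. Of the 3 platelet genes tested, 1 rose. Itgb3, its partner, had 20.2 to 149.9 (median 53.6) in Control remnants and 12 to 31.1 (median 27.9) in Sham Control kidneys (0.50 ± 0.18, adjusted p = 0.026), a call lost with limma-voom and without Sham Control replicate 2 or 4 or 5/6Nx Control replicate 4 (adjusted p of at most 0.0598). In PD rats Itgb3 was at 0.33 ± 0.21.

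Itgb1 and a pair of chains near the threshold within a treatment complete the kidney. Over both treatments together, Itgb1 and Itga10 were called by limma (adjusted p = 0.000875 and 0.00151), and Lamc3 was not. Lamb3, Lamb1 and Lama4 were called there too (adjusted p = 2e-05, 2.94e-05 and 0.00655). None of these calls was lost in a refit. Itga4, Itga8 and Lama3 were called over both treatments only in some refits. Itgb1, the most shared beta chain, had 20503 to 26396 (median 22880.5) normalized reads in PD remnants and 18357 to 21535 (median 19389) in Sham PD kidneys, 1.19-fold (0.25 ± 0.09, adjusted p = 0.0304), and changed by 0.26 ± 0.10 in Control rats (adjusted p = 0.0451). The Itgb1 call in Control rats was lost with no filter and without Sham Control replicate 1, 2, 3, 5 or 6 or 5/6Nx Control replicate 1, 2, 4 or 5 (adjusted p of at most 0.0959), and that in PD rats without Sham PD replicate 1, 3 or 4 or 5/6Nx PD replicate 2, 5 or 7 (adjusted p of at most 0.0673). Itga10 (0.44 ± 0.17, adjusted p = 0.049), with a mean of 12.3 ± 10.1 normalized reads in PD remnants and 1.69 ± 4.13 in Sham PD kidneys (SD, n = 7 and 6), and Lamc3 (-0.56 ± 0.21, adjusted p = 0.0422) were called in PD rats. The Itga10 call was lost with no filter, log2(normalized reads + 1) and limma-voom (adjusted p of at most 0.122) and without Sham PD replicate 2, 3, 4, 5 or 6 (adjusted p of at most 0.0884), and the Lamc3 call with TMM scaling, with no filter, with all 4 groups in one fit (adjusted p = 0.189), and without Sham PD replicate 1, 2 or 5 or 5/6Nx PD replicate 2, 4, 5, 6 or 7 (adjusted p of at most 0.098).

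The partners of these chains were counted from lists. Of 25 integrin ligands tested in PD kidneys 19 rose and 1 fell, and of 23 in Control kidneys 17 rose and 1 fell. Tnc, which encodes tenascin C, rose in Control rats (3.36 ± 0.29, adjusted p = 6.25e-06), as did Spp1, which encodes osteopontin (2.78 ± 0.28, adjusted p = 1.39e-05). Of 22 basement membrane partners, 9 rose and 5 fell in PD kidneys and 11 rose and 7 fell in Control kidneys. In Control rats Col4a1, a collagen of nearly all basement membranes, rose (1.83 ± 0.21, adjusted p = 2.45e-05) and Fras1, of the embryonic epithelial basement membrane, fell (-1.33 ± 0.18, adjusted p = 7.75e-05). Of 32 adaptors inside the cell, 9 rose and 5 fell in PD kidneys and 12 rose and 4 fell in Control kidneys. The adaptors called were 43.8% in PD and 50% in Control kidneys, near the 40.1% and 52.2% of all genes in those comparisons. For the ligands the shares were 80% in PD and 78.3% in Control kidneys, and for the basement membrane partners 63.6% in PD and 81.8% in Control kidneys. In Control rats Flna, which links integrins to actin, rose (1.58 ± 0.11, adjusted p = 2.48e-06), and Dst, which anchors keratin at hemidesmosomes, fell (-1.33 ± 0.15, adjusted p = 2.6e-05). The median change in Control kidneys was 1.17 over the ligands, 0.35 over the basement membrane partners and 0.21 over the adaptors, against -0.01 over all genes.

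In the LV, 5/6Nx was compared with Sham in Control rats and in PD rats. In Control rats (n = 7 against 6) none of 33 chains was called by limma, nor by limma-voom on recovered reads, where 0.0697% of genes were called, and 10 chains (30.3%) had an unadjusted p under 0.05, against 17.5% of genes. Without any one library the count of chains stayed at 0, while the share of all genes was 1.94% without LV 5/6Nx Control replicate 3 and 0.51% without replicate 5, the libraries that lay apart. In PD rats (n = 7 against 6) 13 of 33 were called, 2 higher and 11 lower, where 37.8% of genes were called, 18.2% higher and 19.6% lower. The groups did not overlap for 4 chains in PD rats, against 10% of genes. Over both treatments together (n = 14 against 12), 16 of 33 were called, 3 higher and 13 lower, where the shares of genes were 36.5%, 17.0% and 19.5%. Without LV Sham PD replicate 2 the counts were 14 in PD rats and 16 over both treatments, with the shares of all genes in those refits not given here. The median change in PD rats was -0.27 over the chains and -0.03 over all genes.

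The chains that rose with 5/6Nx in the LV of PD rats were Lamb3 and Itga9. Lamb3 had 356 to 426 (median 379.7) normalized reads in 5/6Nx PD LV, against 204 to 306 (median 267) in Sham PD LV (0.42 ± 0.08, adjusted p = 0.00186). All 7 LV of 5/6Nx PD rats were above all 6 of Sham PD rats. In Control rats the change of Lamb3 was 0.38 ± 0.10, and over both treatments it was 0.40 ± 0.06 (adjusted p = 7.8e-05). With all 4 groups in one fit Lamb3 and Lamc3 were called in Control rats. In that fit 1.55% of all genes were called, against 0.0697% in the fit of Control rats alone. Itga9 changed by 0.68 ± 0.26 in PD rats (adjusted p = 0.0489), a call lost with TMM scaling, with no filter, with log2(normalized reads + 1) and with all 4 groups in one fit, and by 0.74 ± 0.21 over both treatments (adjusted p = 0.0075). Itga5 changed by 0.21 ± 0.05 over both treatments (adjusted p = 0.00266).

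Of the 4 collagen receptor chains, 3 fell in PD rats. Itga11 had 13.7 to 60.3 (median 28) normalized reads in 5/6Nx PD LV, against 99.2 to 141 (median 107) in Sham PD LV, 3.35-fold more in Sham (-0.81 ± 0.11, adjusted p = 0.00038). Itga1, a receptor for collagen IV, had 591 to 2631 (median 1893) in 5/6Nx PD and 2683 to 3724 (median 3428) in Sham PD LV (-0.91 ± 0.26, adjusted p = 0.0135). All 7 LV of 5/6Nx PD rats lay below all Sham PD LV for both chains. Itga10, with a mean of 8.05 ± 11.7 normalized reads in 5/6Nx PD and 22.3 ± 5.34 in Sham PD LV (SD, n = 7 and 6), changed by -0.53 ± 0.17 (adjusted p = 0.0246). Over both treatments the changes were -0.55 ± 0.10 for Itga11, -0.69 ± 0.21 for Itga1 and -0.40 ± 0.13 for Itga10, all called. Itga8, a receptor of mesenchymal cells, had 359 to 674 (median 473) in 5/6Nx PD and 579 to 790.5 (median 669.8) in Sham PD LV (-0.44 ± 0.13, adjusted p = 0.0144).

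Of the 9 laminin chains tested, Lamb1, Lamc1, Lamc3 and Lama4 fell in the same comparison, as did Itgb4. Lamb1 had 8829 to 14415 (median 12688) normalized reads in 5/6Nx PD LV, against 15026 to 20176 (median 16756) in Sham PD LV, with no overlap (-0.52 ± 0.12, adjusted p = 0.00522). Lamc3 had 18.8 to 57.2 (median 29.8) in 5/6Nx PD and 56.2 to 137 (median 79.4) in Sham PD LV (-0.56 ± 0.12, adjusted p = 0.00342). Itgb4 had 822 to 1953 (median 1224) in 5/6Nx PD and 1647 to 2745 (median 2104) in Sham PD LV (-0.72 ± 0.15, adjusted p = 0.00274). For Lamc3 and Itgb4, 6 of 7 LV of 5/6Nx PD rats were below every Sham PD LV. Lamc1 changed by -0.51 ± 0.15 and Lama4 by -0.32 ± 0.12 (adjusted p = 0.0185 and 0.0456), and the Lama4 call was lost with TMM scaling and with no filter. Lama2, the muscle chain, was called over both treatments (-0.25 ± 0.07, adjusted p = 0.0127) and not in PD rats. So was Itga6, a call lost with no filter (adjusted p = 0.0535). Itgax was called over both treatments, and in PD rats with limma-voom (adjusted p = 0.0457) and with all 4 groups in one fit (adjusted p = 0.0335). Itgb1 was not called in any of the 3 comparisons and Itga7 was at 0.27 ± 0.11 in PD rats, called there without LV Sham PD replicate 2 (0.32 ± 0.11, adjusted p = 0.027) and with all 4 groups in one fit (adjusted p = 0.0485).

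Itgb2 and Itgb3, chains of leukocytes and platelets, were also lower in 5/6Nx PD than in Sham PD LV. Itgb2 had 373 to 1230.0 (median 638) normalized reads in 5/6Nx PD LV, against 716 to 1697 (median 1174) in Sham PD LV (-0.73 ± 0.22, adjusted p = 0.0177). Itgb3 had 134 to 587 (median 277) in 5/6Nx PD and 332 to 1298 (median 569) in Sham PD LV (-0.85 ± 0.27, adjusted p = 0.0233). Both ranges overlapped. In Control rats the changes were 0.34 ± 0.16 for Itgb2 and -0.09 ± 0.14 for Itgb3, and over both treatments only Itgb3 was called (-0.47 ± 0.17, adjusted p = 0.0377). Itga2b was at -0.54 ± 0.32 and Itgb7 at -0.31 ± 0.19 in PD rats, neither called. The remaining chains not called in PD rats, Itga2, Itga3, Itga4, Itgal, Itgae, Itgav, Itgb5, Itgb6, Itgb8, Lama3, Lama5 and Lamb2, had changes between -0.77 and 0.49.

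**Figure D3:**
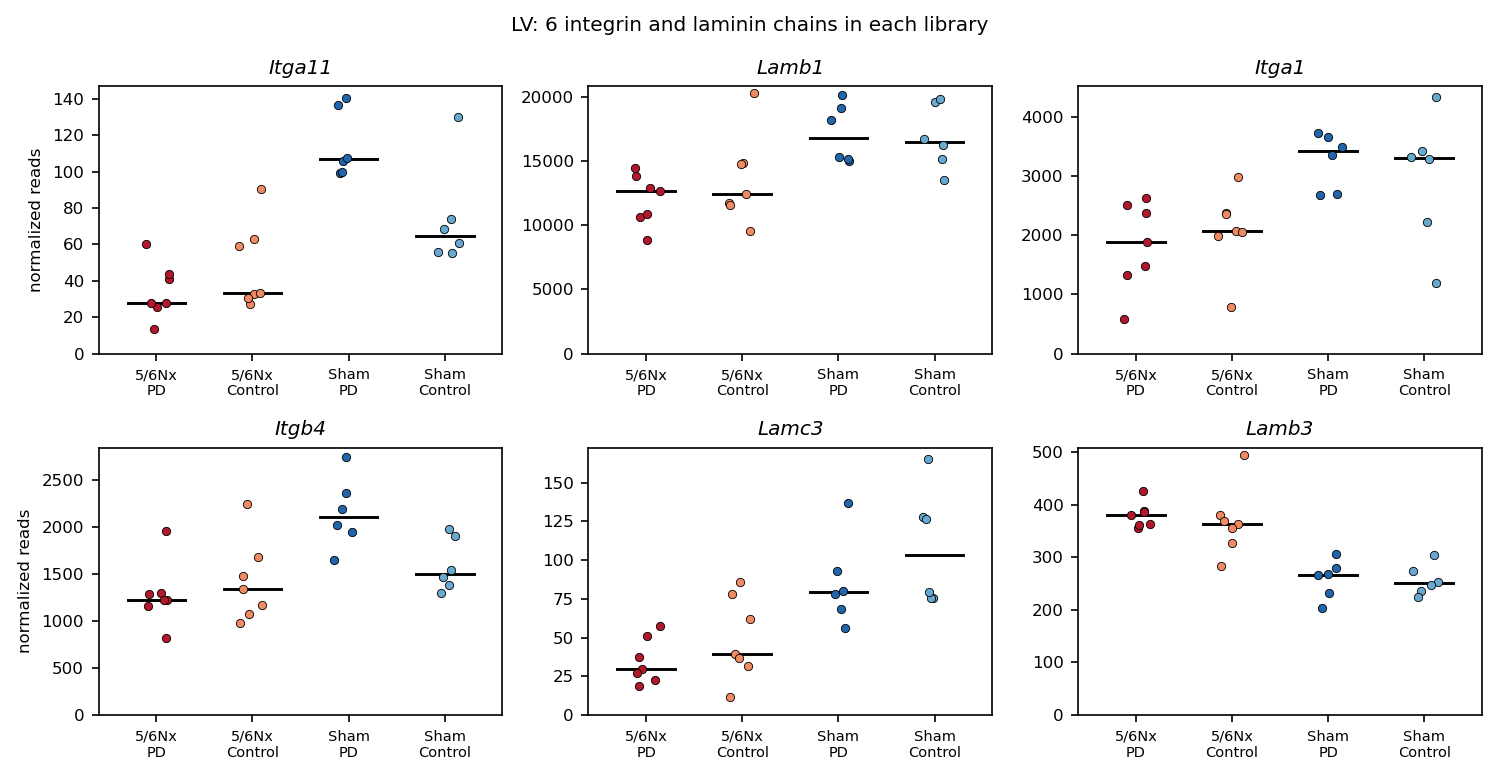
Normalized reads of 6 chains in each LV library (points) of the 4 groups, with the group median as a line. Itga11, Lamb1, Itga1, Itgb4 and Lamc3 are lower and Lamb3 is higher in 5/6Nx PD than in Sham PD rats; none of the differences between the Control groups was called in the fit of Control rats alone.

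Markers of non-muscle cells moved in the same comparison of the LV. All 5 fibroblast genes fell in PD rats, with a sum of 18748 to 55859.6 (median 37430.1) in 5/6Nx PD and 77644 to 94701 (median 84934) in Sham PD LV. In Control rats the fibroblast sum was 19533 to 68604 (median 48058) in 5/6Nx and 58835 to 88285 (median 79059) in Sham LV. In PD rats 5 of 6 endothelial genes and all 8 macrophage genes fell, with an endothelial sum of 51280.3 to 98519 (median 70665) in 5/6Nx PD and 84787 to 118016 (median 110675) in Sham PD LV, and 5 of 6 cardiomyocyte genes rose. The neutrophil sum had the higher median in 5/6Nx PD LV, with 8412 to 28452 (median 20381), against 10918 to 23500 (median 15004) in Sham PD LV. No gene of these lists was at 0 in a group, and their part in the changes of the chains was not tested. Of 22 basement membrane partners 10 fell and 0 rose in PD rats by limma, where 12 were not called. Among them Col4a3, a collagen chain (-1.20 ± 0.19, adjusted p = 0.00072), and Nid1, which joins laminin to collagen IV (-0.89 ± 0.15, adjusted p = 0.000887), fell. Of 24 ligands 7 fell and 0 rose, and of 31 adaptors 6 rose and 9 fell. The shares called were 45.5% of the basement membrane partners, 29.2% of the ligands and 48.4% of the adaptors, against 37.8% of all genes. The adaptor of smallest adjusted p was Lims2, a partner of integrin-linked kinase (0.89 ± 0.09, adjusted p = 7.45e-05).

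**Figure D4:**
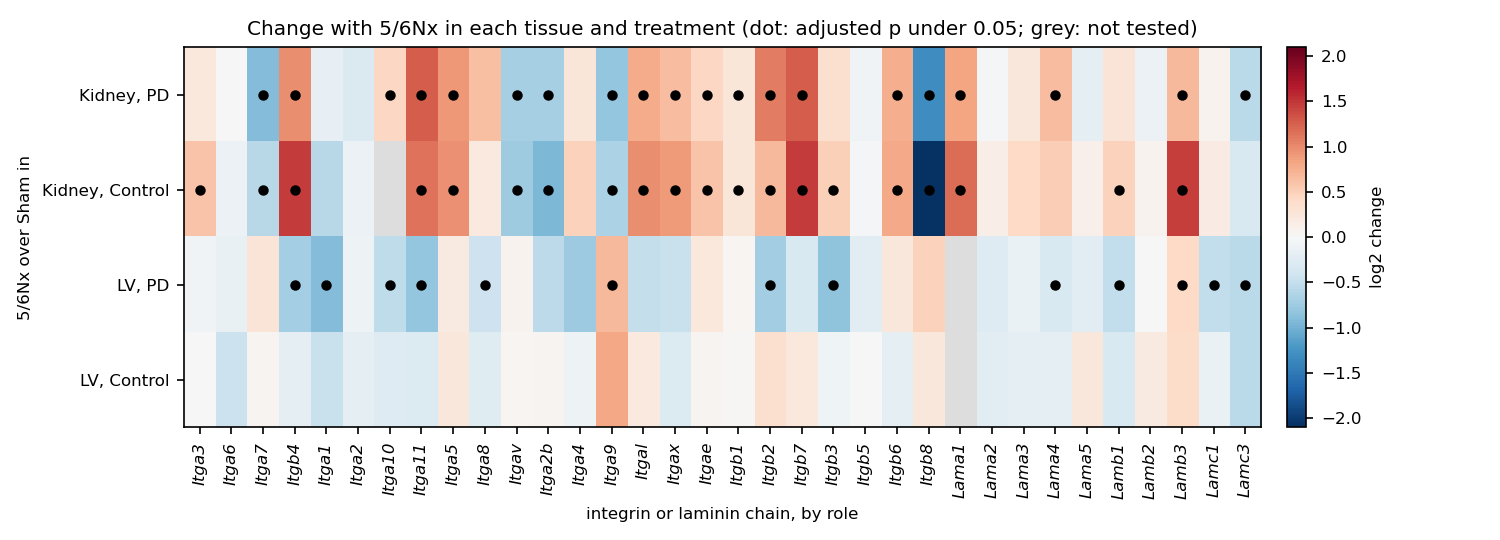
Log2 change of the 34 chains with 5/6Nx over Sham in PD and Control kidneys and in PD and Control LV (n = 7 against 6 in each row); red is higher and blue lower in 5/6Nx, dots mark an adjusted p under 0.05 and grey cells were not tested. Kidney rows hold 20 dots each, the LV PD row 13 and the LV Control row none; Itgb4 and Itga11 are red in the kidney and blue in the LV.

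The change with 5/6Nx was then compared between the tissues in Control rats, by subtracting the LV change from the kidney change. It differed for 17 of 34 chains, 12 with a higher and 5 with a lower change in the kidney, where 33.3% of genes differed, 16.1% higher and 17.3% lower. Without Kidney 5/6Nx Control replicate 6 the count was 19, with the share of all genes in that refit not given here. Itgb4 changed by 1.47 in the kidney and -0.18 in the LV, a difference of 1.65 ± 0.22 (adjusted p = 6.25e-06). Itgax changed by 0.90 in the kidney and -0.29 in the LV (1.19 ± 0.23, adjusted p = 0.000345). Lamb1 changed by 0.49 in the kidney and -0.33 in the LV (0.82 ± 0.18, adjusted p = 0.00105), and Itga11 by 1.14 in the kidney and -0.29 in the LV (1.43 ± 0.33, adjusted p = 0.00166). These 4 chains had estimates of opposite sign in the tissues, although no LV change was called in Control rats.

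The largest difference in the other direction was that of Itgb8, with -2.08 in the kidney and 0.24 in the LV (-2.32 ± 0.46, adjusted p = 0.000534). Itga9 changed by -0.67 in the kidney and 0.81 in the LV (-1.48 ± 0.36, adjusted p = 0.00286). Lamb3, higher in both tissues by estimate, differed in size (1.08 ± 0.24, called). Itgb6, Itgb7 and Lama1 were called as well (0.98 ± 0.17, 1.24 ± 0.25 and 1.18 ± 0.25). Itgb6 had a median of 21.3 normalized reads in Sham Control LV and Lama1 had none in any LV, and both calls were lost with limma-voom (adjusted p = 0.0638 and 0.565). For Lama1 the difference is the kidney change alone. The call of Itgav (-0.79 ± 0.30, adjusted p = 0.0442) was lost with TMM scaling, no filter, log2(normalized reads + 1) and limma-voom, with adjusted p between 0.051 and 0.0659. The other called chains were Itga3, Itga5, Itgae and Itga10 with a higher and Itga2b and Itga7 with a lower change in the kidney.

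PD was compared with Control in the 4 settings of tissue and surgery, and no chain was called in any of them by limma or by limma-voom. The study's own DESeq2 tests called more genes in each of these settings, and its discussion describes integrins, with selectins, as raised by PD. A count of 0 here does not show that PD left the chains unchanged. In the LV of Sham rats (n = 6 each) 0 of 33 were called, where 1.23% of genes were, and 8 (24.2%) had an unadjusted p under 0.05, against 19.5% of genes. In the LV of 5/6Nx rats (n = 7 each) 0 of 32 were called against 0.0896% of genes, and 4 (12.5%) had an unadjusted p under 0.05 against 8.53%. In the kidney of Sham rats (n = 6 each) 0 of 33 were called against 0.143%, and 8 (24.2%) had an unadjusted p under 0.05 against 17.3%. In the remnant kidney (n = 7 each) 0 of 34 were called against 0.0121%, and 1 (2.94%) had an unadjusted p under 0.05 against 4.18%. Over both surgeries, by either tool, 0 chains were called in the LV, where 0.417% of genes were and 3 chains had an unadjusted p under 0.05, and 0 in the kidney, where 0.175% of genes were and 2 chains did.

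In the LV of Sham rats Itgb2 and Itga2b, chains of leukocytes and platelets, had the smallest p-values. The 6 Sham PD LV libraries also serve in the comparison of 5/6Nx with Sham in PD rats, so both comparisons share them. Itga2b had 1037 to 4672 (median 1527) normalized reads in PD LV, against 477 to 1453 (median 696) in Control LV (1.14 ± 0.32, adjusted p = 0.093). Itgb3 had 332 to 1298 (median 569) in PD and 221 to 407 (median 343) in Control LV (0.69 ± 0.23, adjusted p = 0.144). Itgb2 had 716 to 1697 (median 1174) in PD and 411 to 971 (median 606) in Control LV (0.79 ± 0.20, adjusted p = 0.0659). The ranges overlapped for all 3, and PD replicate 5 held the highest Itga2b and Itgb3 of any LV library. Without LV Sham PD replicate 2, which lay apart, 10.4% of all genes were called, and so were 4 of 33 chains (12.1%): Itga2b (1.27 ± 0.32, adjusted p = 0.0277), Itgb3 (0.79 ± 0.23, adjusted p = 0.0459), Itgb2 (0.85 ± 0.20, adjusted p = 0.0241) and Itgb4 (0.48 ± 0.12, adjusted p = 0.0277). Without Sham Control replicate 1, which had the highest Itga2b of its group, 2 were called, against 1.80% of genes: Itgb2 (0.91 ± 0.18, adjusted p = 0.0288) and, with a p just under the threshold, Itga2b (1.32 ± 0.31, adjusted p = 0.05). Without Sham PD replicate 6 Itgb2 was called (adjusted p = 0.0442) and without Sham Control replicate 5 Itga11 was (adjusted p = 0.045). For these refits the shares of all genes are not given here.

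Summed blood cell markers had higher medians in the same Sham PD LV. The 6 platelet genes together had 2841 to 12451 (median 4611) in Sham PD LV and 1390.3 to 5922 (median 1955) in Sham Control LV, with 0 of 6 called by limma. The neutrophil sum was 10918 to 23500.0 (median 15004) in Sham PD and 2128 to 7928 (median 5819.9) in Sham Control LV, with 5 of 6 tested genes called, and the macrophage sum was 22368 to 31956 (median 23204) in Sham PD and 11300.3 to 25453 (median 13566) in Sham Control LV, with 4 of 8 called. No gene of these lists was at 0 in the LV. Their part in the levels of Itga2b, Itgb3 and Itgb2 was not tested. Among the integrin ligands of the LV of Sham rats, 2 of 24 rose with PD, Icam1 (1.10 ± 0.15, adjusted p = 0.004), the ligand of Itgb2 integrins on endothelium, and Vcam1 (0.94 ± 0.21, adjusted p = 0.0391), the ligand of Itga4 and Itga9. Vcam1 also rose in the LV of 5/6Nx rats (1.65 ± 0.28, adjusted p = 0.0374).

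**Figure D5:**
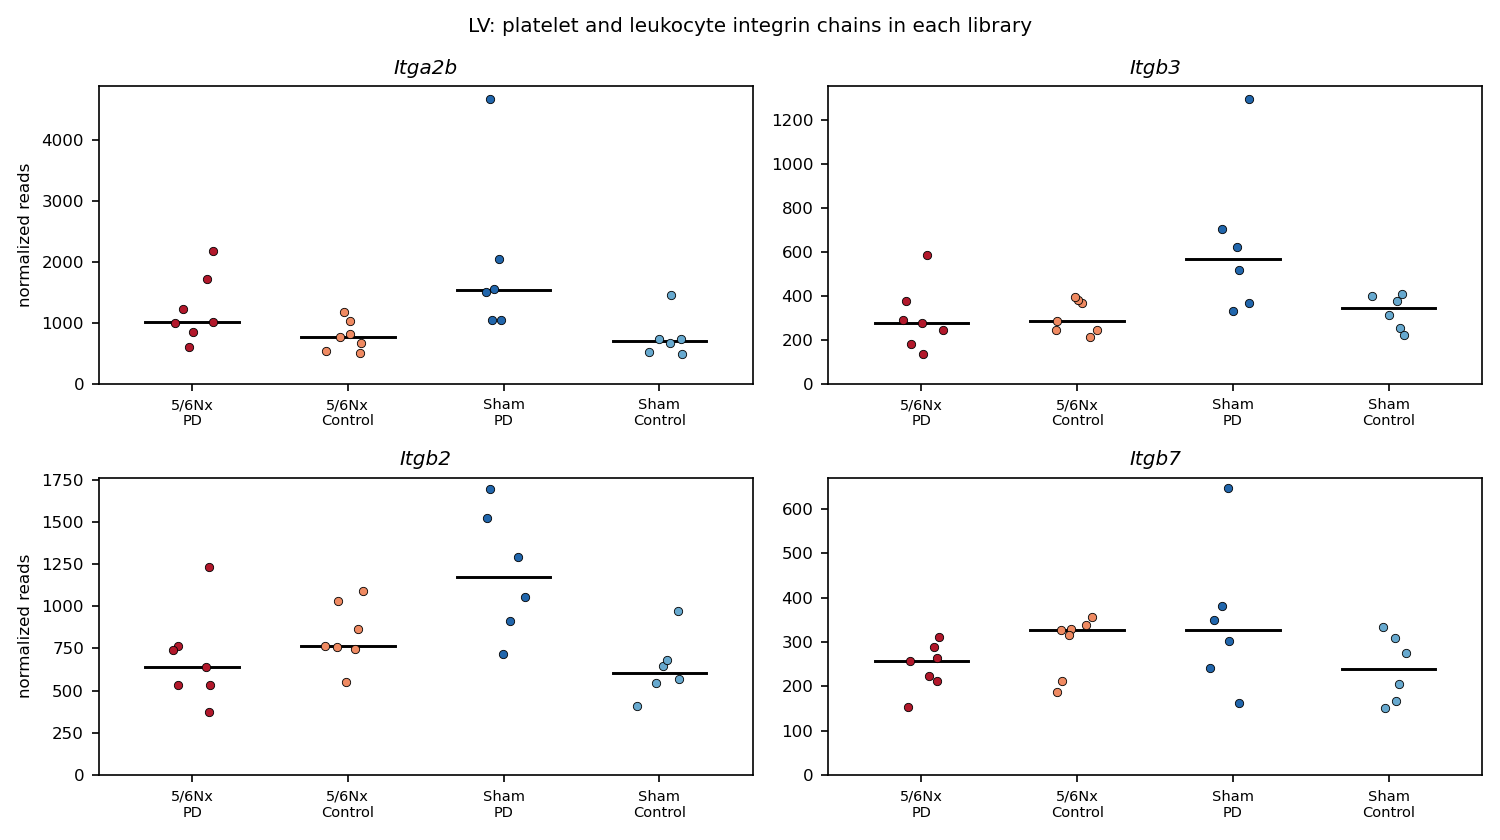
Normalized reads of the platelet chains Itga2b and Itgb3 and the leukocyte chains Itgb2 and Itgb7 in each LV library (points) of the 4 groups, with the group median as a line. Sham PD holds the highest median for the first 3, with 1037 to 4672 (median 1527) for Itga2b against 477 to 1453 (median 696) in Sham Control, and the ranges overlap in every panel.

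In the LV of 5/6Nx rats Itga2b had 599 to 2175 (median 1005) normalized reads in PD and 501 to 1171 (median 755) in Control rats (0.53 ± 0.23, adjusted p = 0.539), and Itgb2 had 373 to 1230.0 (median 638) in PD and 548 to 1088 (median 767) in Control rats. The neutrophil sum in these LV was 8412 to 28452 (median 20381) in PD and 5427 to 14262 (median 8859) in Control rats. The macrophage sum was 6109 to 15237 (median 9329) in PD and 7659 to 18219 (median 14275) in Control rats. The change of Itgb2 with PD was -0.28 ± 0.19 in 5/6Nx and 0.79 ± 0.20 in Sham rats, a difference of -1.07 ± 0.29 (adjusted p = 0.0629). Of 33 chains 0 were called for such a difference between the surgeries in the LV by limma or limma-voom, where 0.693% of genes were, and 7 had an unadjusted p under 0.05 (21.2%, against 18.2% of genes). Without LV Sham PD replicate 2 the difference for Itgb2 was called (-1.13 ± 0.29, adjusted p = 0.0367), as was that of 3.9% of all genes. In the kidney 0 of 34 were called by either tool, as were 0% of genes, and 3 had an unadjusted p under 0.05 (8.82%, against 4.47%).

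In the kidney of Sham rats Itgb8 had the smallest p-value with PD. It had 1286 to 3788 (median 2745) normalized reads in PD kidneys, against 3341 to 6276 (median 4939) in Control kidneys (-0.87 ± 0.21, adjusted p = 0.09). All PD kidneys but replicate 4 were below every Control kidney. Without Kidney Sham PD replicate 4, the library of fewest reads, it was called (-0.97 ± 0.21, adjusted p = 0.0493), as were 0.938% of all genes. In the remnant it had 478 to 1983 (median 843) in PD and 418 to 2269 (median 1087) in Control rats (-0.09 ± 0.34). Lama2 in Sham kidneys changed by 0.60 ± 0.18 with PD (adjusted p = 0.14). In the remnant the chain with an unadjusted p under 0.05 was Itga7 (-0.27 ± 0.12, adjusted p = 1).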

How the data were processed

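Per the labels and the methods of the study, poly(A) libraries from a TruSeq stranded kit were trimmed with Trim Galore and cutadapt, aligned to rn6 with HISAT2 (version 2.1.1 in the submitters' processing notes), assembled with StringTie2 and normalized with DESeq2 by the authors. Whether strand was used in counting is not given in the sources used here. The deposited log2 values were variance-stabilised by the authors over all 52 libraries, as the values show: inverting the transformation gave whole reads for 100% of values (tolerance 0.001, largest deviation 8.8e-08). 1008 genes share a name with another row, none of them a chain described here, and 0 columns were left unmapped. No library was a copy of another of its group (mean chi-square of a gene at least 21.8 for any pair within a group). Libraries of different groups were not compared in this way.

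A gene was tested where the number of libraries with 10 or more normalized reads reached the size of the smallest group, and the test was made with limma 3.58.1 (R 4.3.3, statmod 1.5.0; trend and robust) on the deposited values, with Benjamini-Hochberg adjustment over all genes. The code was checked on simulated data. Alternatives were TMM scaling, no filter, log2(normalized reads + 1), limma-voom on recovered reads, one fit over the 4 groups of each tissue and fits without single libraries. 1 chain found by the naming rule is not reported here and enters no count of chains. Any other chain could be named, with per-library levels for those past the threshold, and at most 4 genes of another list per comparison, those of smallest adjusted p. The chains, lists and tests were chosen with earlier results of these data known. The authors' tables of PD against Control hold their own fold changes and p-values and were not used.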

Additional observations from a re-analysis of the deposited data

Results flagged for a closer look

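Within single groups, 268 pairs of a chain and a group were examined, and in 18 of them (6.72%) 1 library lay far from the rest. Chance alone marks about 1 in 20 groups, a share that does not hold for chains at the floor. Itga10 had a median of 0 in Kidney Sham Control and Kidney Sham PD, where 1 library with reads among zeros is always marked. Kidney Sham PD replicate 6 did so for Itga6 (4726 normalized reads), Itgb3 (0) and Lamc1 (1921), and LV 5/6Nx Control replicate 1 for Itga1 (793.5), Itga4 (0) and Lama3 (0). Kidney 5/6Nx PD replicate 7 did so for Itgb2 (2323) and Lamb2 (9836), and Kidney Sham Control replicate 3 for Itgb5 (9448) and Itga10 (12.01). In the kidney the others were Itga10 in Sham PD replicate 1 (10.12), and in 5/6Nx Control rats Itgax in replicate 3 (358.0), Itgb4 in replicate 1 (5698) and Lama3 in replicate 5 (794.9). In the LV they were, in Sham PD rats, Itgav in replicate 2 (1483) and, in Sham Control rats, Itga10 in replicate 3 (0), Itga11 in replicate 5 (130.1) and Itga2b in replicate 1 (1453).

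The change with 5/6Nx in Control rats differed between kidney and LV for 17 chains by the interaction term. The kidney change exceeded the LV change by 1.65 for Itgb4, 1.43 for Itga11, 1.24 for Itgb7, 1.19 for Itgax, 1.18 for Lama1, 1.08 for Lamb3 and 0.98 for Itgb6 on the log2 scale. It exceeded it by 0.82 for Lamb1, 0.73 for Itga5, 0.70 for Itga10, 0.62 for Itga3 and 0.53 for Itgae. The difference was -2.32 for Itgb8, -1.48 for Itga9, -0.997 for Itga2b, -0.79 for Itgav and -0.64 for Itga7.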

How the results depend on the processing

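Of 1523 refits of 161 changes of single chains, 1407 kept direction and side of the threshold, 68 lost a call, 48 gained one and 0 changed direction. These 161 changes are those called in at least 1 fit, refitted on nearly the same libraries, so a change of direction was unlikely from the start. In the LV of Control rats, 5/6Nx against Sham gave 2 called chains (Lamb3 and Lamc3) with all 4 groups in one fit and 0 otherwise. The share of all genes called rose as well, to 1.55% in that fit from 0.0697% in the fit of Control rats alone. With single libraries left out, PD against Control gave 0 to 4 called chains in the LV and 0 to 1 in the kidney of Sham rats, and 1 for the interaction of PD with surgery in the LV without LV Sham PD replicate 2. The counts for 5/6Nx against Sham ran from 17 to 22 in the kidney of Control rats, from 16 to 21 in that of PD rats and from 11 to 16 in the LV of PD rats. Over the alternatives that kept every library, the shares of all genes were 43.6% to 53.1%, 32.8% to 41.1% and 29.1% to 39.7%, in that order. For these comparisons the shares without single libraries are not given here, so the ranges do not tell whether only the chains moved. Kidney against LV gave 28 under TMM scaling, no filter, log2(normalized reads + 1) and limma-voom and was not refitted without single libraries, and the tissue interaction gave 14 to 19. In the LV of PD rats and for the interactions, 1 library was left out. The fits without Kidney 5/6Nx Control replicate 6 for that interaction were chosen after seeing the data. The cause of these shifts was not tested. No paired analysis was made, because the labels do not state which libraries came from the same rat. Library numbers in the sample titles differ by a constant between kidney and LV libraries of each group, which might pair them. Kidney against LV and the tissue interaction therefore took as independent libraries that may share rats. Depth limits the low chains: Itga10 and, in the LV, Itgb6 had few or no reads in several libraries, so their log2 changes are drawn toward 0.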
